A study of Homo sapiens with 40 samples.

Results

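HIRA and DAXX are chaperones of the same histone variant, H3.3, and the CENP-A peaks mapped after knockdown of HIRA were set against those mapped after knockdown of DAXX. The members were all peaks of the merged, replicated lists of both knockdowns, 848 peaks after HIRA knockdown and 952 after DAXX knockdown. Together these were 1800 of the 5748 peaks in the 6 lists of the series. Peaks of both lists counted as shared where they had at least 1 base in common, and as specific to a list otherwise. A peak was called ectopic when it had no base in a centromere band of hg19.

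All libraries came from SW480, an established human colon cancer line. The ChIP libraries were made by native immunoprecipitation of MNase-digested chromatin with ACA serum, a human serum against centromere proteins that binds CENP-A and other centromere proteins. Cells received siRNA against HIRA or siRNA against DAXX for 72 h, and each knockdown had 4 ChIP and 4 input libraries. The lists of the other conditions were used to ask where else a region had a peak. These were control cells (called untreated in the labels and control siRNA in the paper's results, 4 ChIP libraries) and HJURP knockdown (4 ChIP libraries). The double knockdowns HIRA+DAXX and HIRA+HJURP (2 ChIP libraries each) were used in the same way. The lists hold positions and no height, depth or replicate, so the extent of either knockdown could not be checked from them and no difference between lists has a replicate error or a p-value. Intervals are 95% Wilson intervals on shares of peaks or regions, and cover counting error only.

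CENP-A replaces histone H3 in centromeric nucleosomes, where the chaperone HJURP deposits it. H3.3 is placed outside of DNA replication by separate routes: HIRA, acting with UBN1, CABIN1 and ASF1A, serves promoters and transcribed genes, and DAXX, acting with ATRX, serves telomeres, satellite repeats and other heterochromatin. CENP-A that is present in excess of HJURP can be bound by H3.3 chaperones and placed on chromosome arms.

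The sequences below show what kinds of DNA lay in shared and list-specific regions. They are stretches of 200 bases of the plus strand of GRCh37, the build of the lists, and none overlaps an annotated exon. They were taken outside the largest cluster of peaks, from the widest shared region that held no exon, from the widest such HIRA knockdown only and DAXX knockdown only regions of a cluster on the short arm of chromosome 12, and from the region with the most CENP-B box matches. Where a region held a motif match the stretch with the most matches was taken, and otherwise its centre. The labels describe the whole region. Whether the stretches from shared regions lie under peaks of both lists was not checked. Capitals mark matches to the CENP-B box (TTCGNNNNANNCGGG), the site that the centromere protein CENP-B binds in alpha satellite, on either strand.
Shared, 9 HIRA knockdown peaks under 1 DAXX knockdown peak, chr7:61882856-61883055: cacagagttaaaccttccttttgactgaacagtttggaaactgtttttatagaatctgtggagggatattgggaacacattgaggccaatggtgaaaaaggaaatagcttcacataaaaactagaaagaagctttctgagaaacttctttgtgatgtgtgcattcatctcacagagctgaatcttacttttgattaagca
Shared, with a CENP-B box match, chr21:14338946-14339145: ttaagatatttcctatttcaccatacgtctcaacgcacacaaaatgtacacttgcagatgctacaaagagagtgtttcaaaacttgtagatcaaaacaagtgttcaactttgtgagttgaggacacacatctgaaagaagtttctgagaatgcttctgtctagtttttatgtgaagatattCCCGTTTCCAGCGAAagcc
HIRA knockdown only, intron of ITPR2, chr12:26918204-26918403: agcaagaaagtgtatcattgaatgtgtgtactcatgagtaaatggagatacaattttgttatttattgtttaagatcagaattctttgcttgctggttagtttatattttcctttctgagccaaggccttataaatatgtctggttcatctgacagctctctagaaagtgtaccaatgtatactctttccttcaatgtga
DAXX knockdown only, between genes of 12p, chr12:25991071-25991270: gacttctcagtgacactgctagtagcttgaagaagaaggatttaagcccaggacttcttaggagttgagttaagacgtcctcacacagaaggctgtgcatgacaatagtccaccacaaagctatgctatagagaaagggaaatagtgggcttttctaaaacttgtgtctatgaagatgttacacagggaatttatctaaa

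After DAXX knockdown ectopic peaks were more numerous and covered more bases than after HIRA knockdown. There were 641 ectopic peaks covering 707 kb after HIRA knockdown and 759 covering 1124 kb after DAXX knockdown, beside 289 covering 397 kb in control. DAXX knockdown thus had 1.59 times the covered length and 1.18 times the number. Mean width was 1103 bp after HIRA knockdown and 1481 bp after DAXX knockdown, and median width 750 bp and 902 bp. The order of the medians was not the same in all places, as given below. The lead in number depended on how peaks were counted: with peaks of a list within 1 kb merged it became 419 against 415 (ratio 0.990), with peaks within 10 kb merged 192 against 168 sites (0.875).

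Most HIRA knockdown peaks lay where DAXX knockdown also had a peak, while a smaller share of DAXX knockdown peaks lay where HIRA knockdown had one. Of the 641 ectopic HIRA knockdown peaks, 467 (72.9%, 69.3 to 76.2%) shared a base with a DAXX knockdown peak and 174 did not. Of the 759 ectopic DAXX knockdown peaks, 389 (51.3%, 47.7 to 54.8%) shared a base with a HIRA knockdown peak and 370 did not. By bases, 581 kb lay under peaks of both lists, 126 kb under HIRA knockdown peaks alone and 543 kb under DAXX knockdown peaks alone. The common bases made up 82.1% of the HIRA knockdown cover, 51.7% of the DAXX knockdown cover and 46.4% of the cover of either list. Joined into 913 separate regions, the peaks gave 369 shared regions, 174 with HIRA knockdown peaks alone and 370 with DAXX knockdown peaks alone.

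The chromosomes divided the lists. Chromosome 8 held 156 HIRA knockdown and 389 DAXX knockdown peaks, and 259 of the 370 DAXX-only peaks. Chromosome 12 held 64 HIRA knockdown and 24 DAXX knockdown peaks, and 60 of the 174 HIRA-only peaks. Of the 22 chromosomes with an ectopic peak in either list, 13 had more HIRA knockdown peaks, 8 more DAXX knockdown peaks and 1, chromosome 10, had 44 of each. By covered length the order turned, with 14 chromosomes longer after DAXX knockdown and 8 longer after HIRA knockdown. Chromosomes 22 and X had no ectopic peak in either list.

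**Figure D1:**
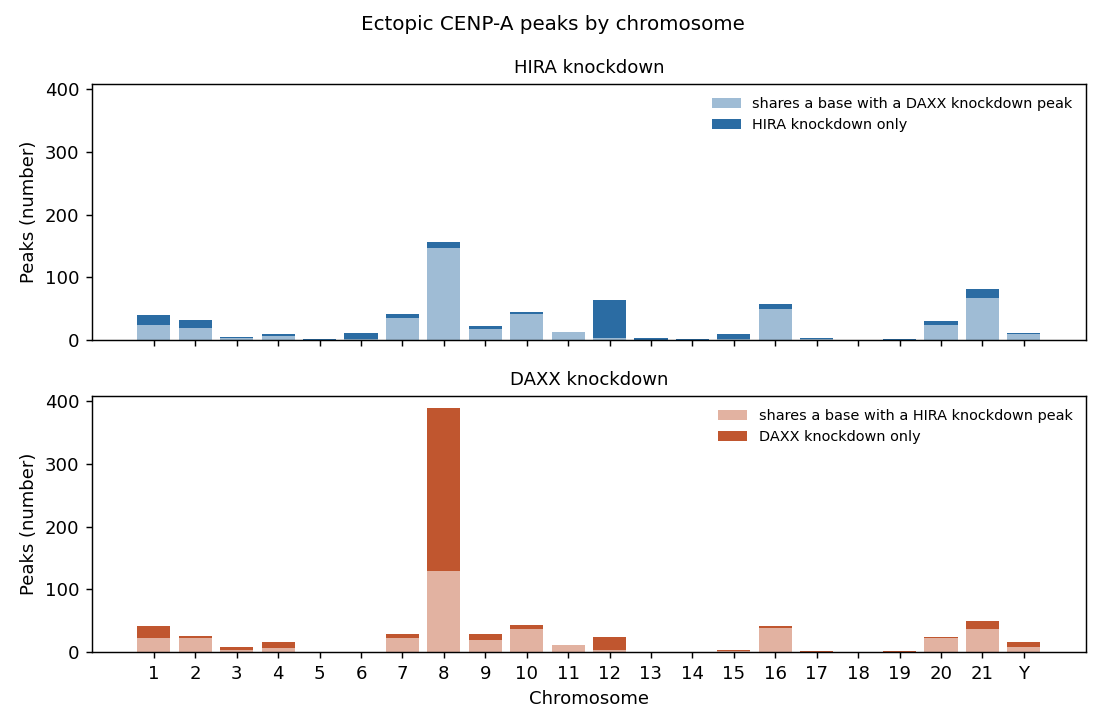
Number of ectopic peaks on each chromosome after HIRA knockdown (upper panel) and DAXX knockdown (lower panel), with pale bars for peaks that share a base with the other list and dark bars for peaks that do not. DAXX-only peaks stand mainly on chromosome 8 (259 of 370), and chromosome 12 holds more HIRA-only peaks (60 of 174) than any other chromosome.

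Without chromosome 8 the direction in number was the opposite. Outside it there were 485 HIRA knockdown and 370 DAXX knockdown peaks, a ratio of 0.763, although DAXX knockdown still covered more, 549 kb against 482 kb. The shares in common were then alike, 66.0% (61.7 to 70.1%) of HIRA knockdown peaks and 70.0% (65.1 to 74.4%) of DAXX knockdown peaks. The lists were described further in 4 compartments: a cluster at 8q24, a cluster on 12p, the surroundings of the centromeres (within 5 Mb of a centromere band or of the assembly gap that touches it), and the rest of the arms. Both clusters were runs of at least 20 peaks of both lists pooled, with neighbours within 1 Mb, and the 12p cluster was noticed after the lists had been looked at. Their spans were thus set by the same peaks that were then counted in them. Control and the other lists had no part in setting them. Median peak width was 1217.5 bp after HIRA knockdown and 1099 bp after DAXX knockdown at 8q24, 673 and 551 bp in the 12p cluster, 676 and 758 bp near centromeres, and 467.5 and 508.5 bp on the rest of the arms.

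At 8q24, the region of the oncogene MYC and of the lncRNAs around it, DAXX knockdown peaks filled in between those found after HIRA knockdown. The paper reports that this locus is amplified in SW480 cells, and the part that copy number has in the counts below was not tested. All ectopic peaks of chromosome 8 in both lists fell within a span of 2.93 Mb, chr8:126684292-129617254, where HIRA knockdown had 156 peaks over 225 kb and DAXX knockdown 389 over 575 kb, beside 81 over 84.5 kb in control. HJURP knockdown had 372 peaks over 566 kb there and HIRA+HJURP knockdown 474 over 385 kb, so a count near that of DAXX knockdown was not particular to it, and HIRA+DAXX knockdown had 220 over 106 kb. Of the HIRA knockdown peaks there, 147 (94.2%, 89.4 to 96.9%) shared a base with a DAXX knockdown peak, against 130 (33.4%, 28.9 to 38.2%) of the DAXX knockdown peaks. Only 9 regions of the span had a HIRA knockdown peak alone, and all 9 lay within 10 kb of a DAXX knockdown peak. The 259 DAXX-only peaks had a median width of 883 bp, and lay at a median distance of 3.84 kb from the nearest HIRA knockdown peak, 184 of them (71.0%) within 10 kb. With peaks within 10 kb merged, the ratio in number at 8q24 went from 2.49 to 1.10, with 40 sites after HIRA knockdown and 44 after DAXX knockdown.

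The excess of DAXX knockdown peaks ran along most of the 8q24 span. In steps of 100 kb from the MYC start site, 26 of 30 steps held a peak of either list, and 24 of these had more DAXX knockdown peaks, 1 had more HIRA knockdown peaks and 1 had equal numbers. The densest step after DAXX knockdown, 500 to 400 kb upstream of MYC, held 39 peaks against 13 after HIRA knockdown. In 6 steps there were DAXX knockdown peaks and no HIRA knockdown peak, among them the 100 kb directly upstream of MYC with 6 DAXX knockdown peaks. MYC itself (chr8:128747680-128755197) held no peak in either list. The nearest peak lay 69.7 kb from the gene after DAXX knockdown and 373 kb from it after HIRA knockdown.

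**Figure D2:**
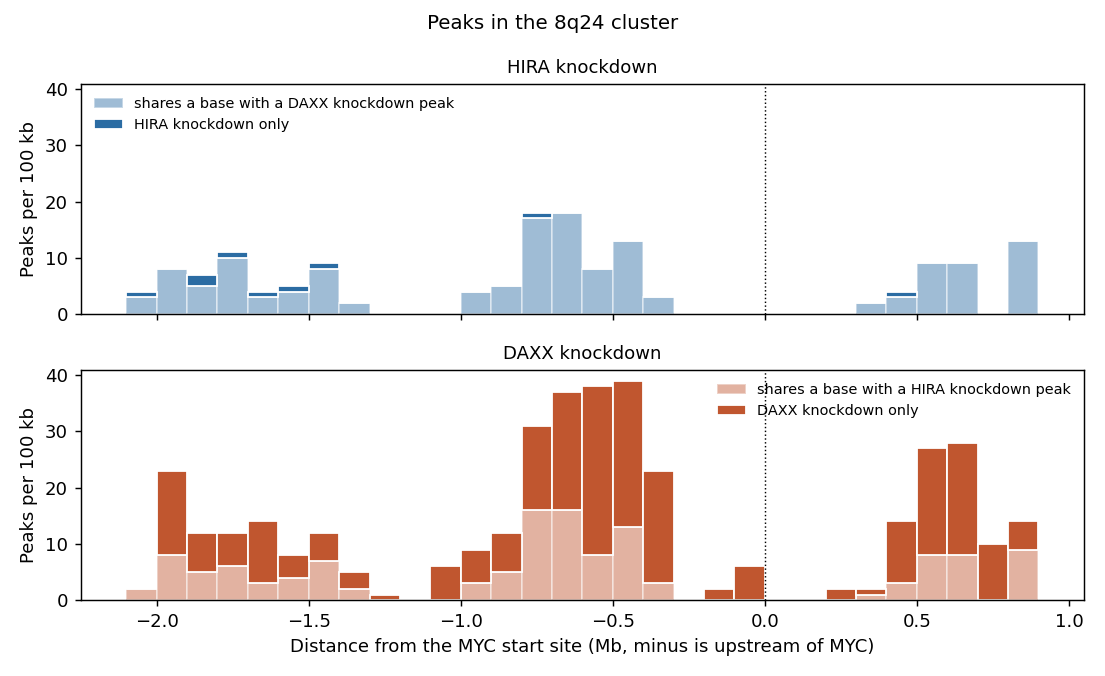
Number of peaks per 100 kb across the 8q24 cluster by distance from the MYC start site in Mb (dotted line), after HIRA knockdown (upper panel) and DAXX knockdown (lower panel), with pale bars for shared peaks and dark bars for list-specific peaks. The dark part is small after HIRA knockdown (9 of 156 peaks) and makes up most of the bars after DAXX knockdown (259 of 389).

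The genes with the most DAXX-only peaks were all at 8q24. PCAT1, a lncRNA gene of 863 kb in this annotation, held 69 HIRA knockdown and 195 DAXX knockdown peaks, of which 1 and 131 were list-specific. CASC19 held 19 and 57 peaks, CASC8 9 and 40, LINC02964 22 and 43, and POU5F1B, a retrogene of the pluripotency factor gene POU5F1, 4 and 31. These gene models overlap one another, so a peak can count for more than 1 of them. Of the 21 symbols in a list of 8q24 genes, 16 were found in the annotation, 8 held a HIRA knockdown peak and 9 a DAXX knockdown peak (over all annotated genes 0.133% and 0.127%), in a list drawn from the region of the cluster itself. All 9 had more DAXX knockdown than HIRA knockdown peaks. The others of these were LINC00861 with 34 and 48 peaks, PRNCR1 with 3 and 7, PVT1 with 2 and 7, and CCAT2 with 0 and 1. TRIB1, LRATD2, CASC11, GSDMC, CCDC26 and NSMCE2 held none in either list.

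At 8q24 the widest shared region, chr8:128037735-128047326 in an intron of PCAT1, was covered over 9551 bp after HIRA knockdown and 9592 bp after DAXX knockdown. The next, chr8:129270540-129279532 outside any gene, had 2 HIRA knockdown peaks over 5788 bp and a single DAXX knockdown peak of 8993 bp, and chr8:127037332-127045974 in an intron of LINC00861 had 3 HIRA knockdown peaks over 7392 bp and a single DAXX knockdown peak of 8643 bp. The widest DAXX-only peaks, chr8:129346030-129350129 over an exon of a lncRNA gene, chr8:128229581-128233571 over an exon of CASC19 and chr8:128078908-128082895 in an intron of PCAT1, were 4100, 3991 and 3988 bp wide. The widest HIRA-only peaks were narrower: 1564 bp at chr8:127164667-127166230 and 920 bp at chr8:127302364-127303283, both in introns of LINC00861, and 1412 bp at chr8:129241410-129242821 outside any gene.

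On the short arm of chromosome 12 the relation was the other way round. In a span of 5.63 Mb, chr12:21882899-27517674, HIRA knockdown had 63 peaks over 46.3 kb and DAXX knockdown 23 over 16.4 kb, a ratio in number of 0.365, and control had none. The peaks of both lists ran over the same span and seldom overlapped: 3 HIRA knockdown peaks (4.76%, 1.63 to 13.1%) shared a base with 3 DAXX knockdown peaks (13%, 4.54 to 32.1%). The 60 HIRA-only peaks lay at a median of 82.2 kb from the nearest DAXX knockdown peak, and 4 of them within 10 kb. Their median width was 658 bp, against 526 bp for the 20 DAXX-only peaks. HJURP, HIRA+DAXX and HIRA+HJURP knockdown had 32, 25 and 20 peaks in this span.

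SOX5, a gene for a transcription factor of the SOX family, was the gene with the most HIRA-only peaks. It spans 1033 kb (chr12:23682438-24715478, minus strand) of the 5.63 Mb of the cluster. It held 16 of the 63 HIRA knockdown peaks of the cluster, 14 of them HIRA-only. Of the 23 DAXX knockdown peaks of the cluster it held 6, 4 of them DAXX-only. C2CD5, 96.0 kb long, and the overlapping lncRNA gene C2CD5-AS1 held 7 HIRA-only peaks and no DAXX knockdown peak. ITPR2, which encodes an inositol trisphosphate receptor of the endoplasmic reticulum, held 6 HIRA-only peaks and 1 DAXX-only peak, and was named after its values were seen. Other knockdowns also had peaks in these genes. HJURP, HIRA+DAXX and HIRA+HJURP knockdown had 7, 6 and 4 in SOX5, 2, 0 and 1 in C2CD5, and 6, 4 and 1 in ITPR2. Across the cluster 63.5% (51.1 to 74.3%) of HIRA knockdown peaks and 56.5% (36.8 to 74.4%) of DAXX knockdown peaks lay in introns, against 63.9% of all 1000 bp windows of the same span.

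**Figure D3:**
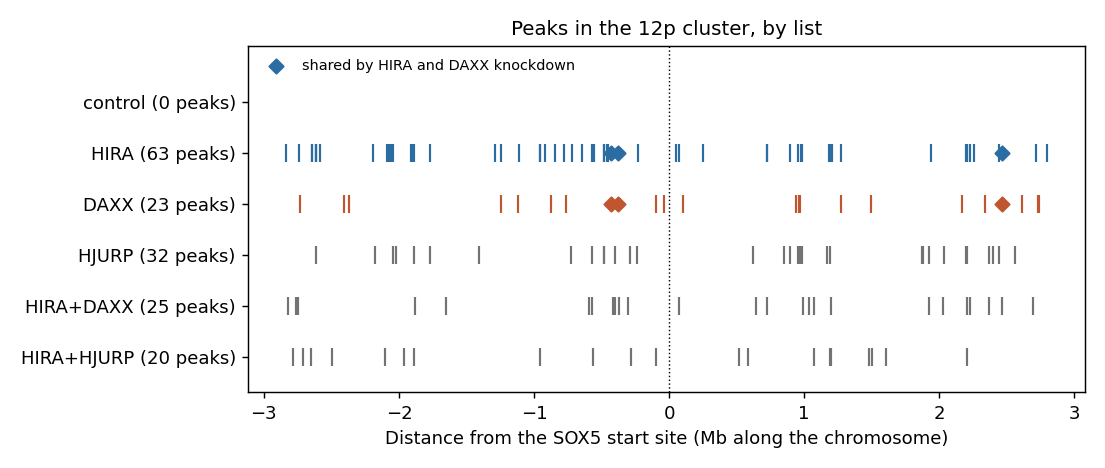
Position of each peak of the 6 lists in the 12p cluster, in Mb along the chromosome from the SOX5 start site (dotted line). Diamonds mark the 3 peaks of each list that HIRA and DAXX knockdown share. HIRA knockdown peaks (63) and DAXX knockdown peaks (23) run over the same span, and control has none.

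Around the centromeres HIRA knockdown had more peaks and DAXX knockdown covered more bases, and each list had a like share in common with the other. HIRA knockdown had 370 peaks over 401 kb and DAXX knockdown 291 over 493 kb. These shares were 78.4% (73.9 to 82.3%) and 79.0% (74.0 to 83.3%). Of the 215 shared regions there, 39 had more HIRA knockdown than DAXX knockdown peaks, 111 peaks over 214 kb against 44 over 263 kb, and 7 had more DAXX knockdown peaks. A stretch covered without a break after DAXX knockdown was thus in places covered by several separate peaks after HIRA knockdown.

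The widest shared regions outside chromosome 8 show this. The region chr7:61867627-61898284, 0.168 Mb from the centromere and outside any gene, was a single DAXX knockdown peak of 30658 bp and 9 HIRA knockdown peaks that covered 22174 bp. The region chr21:10708892-10736602 had 2 DAXX knockdown peaks over 27685 bp and 7 HIRA knockdown peaks over 24960 bp. The region chr16:32543593-32562295 was a single DAXX knockdown peak of 18703 bp with 3 HIRA knockdown peaks over 13764 bp. The regions on chromosomes 7 and 21 also had a peak in all 4 other lists, and the region on chromosome 16 had a peak in control and in none of the other 3.

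PRIM2, which encodes the large subunit of DNA primase, was the protein coding gene near a centromere with the most HIRA-only peaks. It held 10 HIRA knockdown peaks, 9 of them HIRA-only, and 1 DAXX knockdown peak of 1801 bp, while control had 2. The overlapping lncRNA gene ENSG00000290597 held the same 10 and 1 peaks, and the pseudogene PRIM2BP 9 and 1. The pseudogene ANKRD20A14P near the centromere of chromosome 1 held 8 HIRA knockdown peaks, 7 of them HIRA-only, within 23.7 kb, and 5 DAXX knockdown peaks, 4 of them DAXX-only. The widest HIRA-only peak there, chr6:57378852-57380721, was 1870 bp wide, lay in an intron, was 38.9 kb from the nearest DAXX knockdown peak and was in none of the other 4 lists. The genome holds other copies of PRIM2 sequence, and whether reads from them add to these peaks was not tested. The widest DAXX-only peaks outside chromosome 8 were also near centromeres, at chr21:10776430-10779014 (2585 bp), in an intron of PDE4DIP at chr1:145029214-145031778 (2565 bp) and at chr21:10798213-10800457 (2245 bp).

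The rest of the arms held few peaks, 52 over 34.4 kb after HIRA knockdown and 56 over 40.1 kb after DAXX knockdown, and shared about as many as not. In common were 51.9% (38.7 to 64.9%) of the HIRA knockdown and 46.4% (34.0 to 59.3%) of the DAXX knockdown peaks. The widest HIRA-only peak of all, chr5:137803682-137805717, was 2036 bp wide over an exon of EGR1, the immediate early transcription factor gene, and control had a peak there as well. Next in width on these arms, chr1:21347788-21349621 was 1834 bp wide in an intron of EIF4G3, which encodes a translation initiation factor, and also had a peak in the control, HJURP and HIRA+HJURP lists. DAXX knockdown had no ectopic peak on chromosome 5, and its nearest to the EIF4G3 peak was 4266 kb away.

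Peaks were also counted in the genes of the chaperones, beside a share of 0.133% of all annotated genes with a HIRA knockdown peak and 0.127% with a DAXX knockdown peak. Of 12 symbols for H3.3 and its chaperones, 10 were found in the annotation, and 1 of them, H3-3B, which encodes H3.3, held a peak. That peak, 573 bp over an exon (chr17:73775734-73776306), was HIRA-only and control had a peak there too. HIRA, UBN1, UBN2, CABIN1, ASF1A, ASF1B, DAXX, ATRX and H3-3A held none. Of the 10 genes for CENP-A, its deposition factors and its kinetochore partners none held a peak in either list, and the nearest of these was CENPC, 67.7 kb from a peak in both lists.

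Where both lists had a peak, the DAXX knockdown peaks were longer. Over the 369 shared regions the median ratio of DAXX knockdown to HIRA knockdown bases was 1.13 (quartiles 1.01 and 1.47), with medians of 1191 and 856 bp. DAXX knockdown covered more bases in 287 regions and HIRA knockdown in 82. At a difference of at least 1.5-fold, 86 regions (23.3%) were longer after DAXX knockdown and 7 (1.9%) after HIRA knockdown. The median ratio was 1.25 at 8q24 (125 regions), 1.11 near centromeres (215) and 1.03 on the rest of the arms (26). The most unequal regions in either direction were chr16:34003271-34018247 near the centromere, with 14977 bp after DAXX knockdown and 1614 bp after HIRA knockdown, and chr11:51569592-51571638, with 919 bp after DAXX knockdown and 1861 bp after HIRA knockdown.

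**Figure D4:**
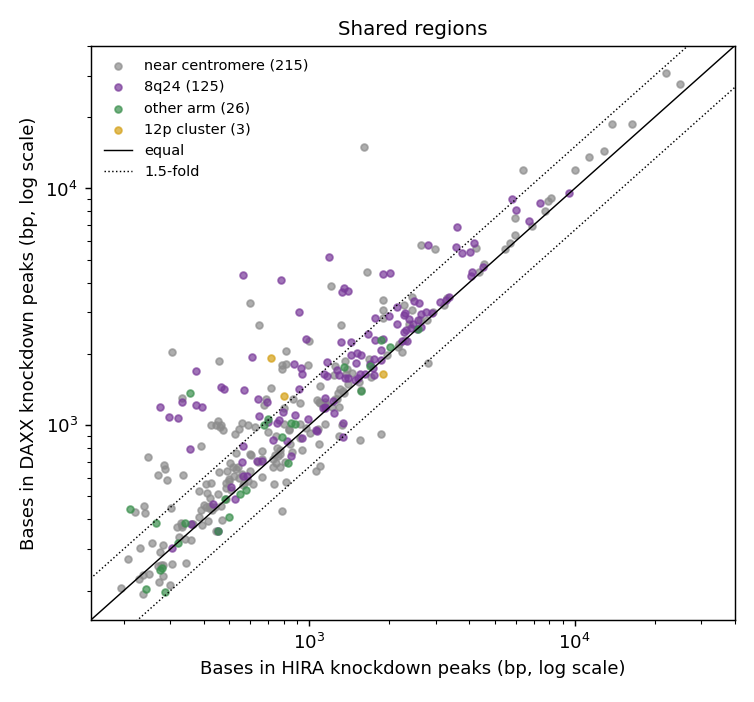
Bases under DAXX knockdown peaks against bases under HIRA knockdown peaks (bp, both axes logarithmic) for each of the 369 shared regions, coloured by compartment, with the line of equality and dotted lines at 1.5-fold. Of the points, 287 lie above the line of equality, and 86 above the upper dotted line against 7 below the lower.

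List-specific peaks were narrower than shared peaks in both lists. After HIRA knockdown the median was 468 bp for HIRA-only and 859 bp for shared peaks, and 54.0% (46.6 to 61.3%) of HIRA-only peaks were under 500 bp wide against 25.9% (22.1 to 30.1%) of shared ones. After DAXX knockdown the medians were 764 and 1152 bp, with 30.5% (26.1 to 35.4%) and 17.7% (14.3 to 21.8%) under 500 bp. Outside 8q24 the list-specific peaks of both knockdowns had like widths, with medians of 469 bp for HIRA-only and 480 bp for DAXX-only peaks.

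Few genes held any of these peaks. Of 64449 annotated genes, 86 (0.133%) held an ectopic HIRA knockdown peak and 82 (0.127%) a DAXX knockdown peak, 60 genes held both, 26 a HIRA knockdown peak alone and 22 a DAXX knockdown peak alone. By type, 38 genes after HIRA knockdown and 27 after DAXX knockdown were protein coding, and 28 and 30 were lncRNA genes. The shares of these types among all annotated genes were not taken. Outside 8q24, 67.0% (62.7 to 71.0%) of HIRA knockdown peaks and 69.7% (64.9 to 74.2%) of DAXX knockdown peaks lay outside genes, against 36.0% of 285845 windows of 1000 bp spread over the genome. This excess came from the surroundings of the centromeres (80.0% and 80.4%), while on the rest of the arms 25% and 32.1% and in the 12p cluster 25.4% and 26.1% lay outside genes. Of 1000 bp windows of the 12p span alone, 21.4% (20.3 to 22.5%) lay outside genes. No windows near centromeres alone were taken. Near centromeres 58.8% (47.8 to 68.9%) of HIRA-only peaks were outside genes, beside 85.9% (81.4 to 89.4%) of shared HIRA knockdown peaks, and PRIM2 and ANKRD20A14P alone held 9 and 7 of the 80 HIRA-only peaks. For DAXX-only and shared DAXX knockdown peaks the shares were 70.5% (58.1 to 80.4%) and 83.0% (77.7 to 87.3%), with overlapping intervals. They were 36.7% (21.9 to 54.5%) and 26.9% (13.7 to 46.1%) on the rest of the arms, and 16.6% (12.6 to 21.6%) and 15.4% (10.2 to 22.6%) at 8q24, where 19.6% of 1000 bp windows lay outside genes. Within 1 kb of a gene start lay 4.84% (3.43 to 6.78%) of all ectopic HIRA knockdown peaks and 5.27% (3.89 to 7.10%) of DAXX knockdown peaks, and 5.87% of those genome windows. On the rest of the arms these shares were 19.2% (10.8 to 31.9%, 10 of 52 peaks) and 10.7% (5.00 to 21.5%, 6 of 56).

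The classes also differed in how often the other lists had a peak at the same place. Of the 369 shared regions, 49.9% (44.8 to 54.9%) had a control peak, against 9.20% (5.74 to 14.4%) of the 174 HIRA-only and 2.16% (1.10 to 4.21%) of the 370 DAXX-only regions. Shared regions were also longer, with a median of 1254 bp against 468 bp (HIRA-only) and 764 bp (DAXX-only). A longer region meets a peak of another list more easily, and the part that length has in these shares was not tested. At 8q24, 192 of 259 DAXX-only regions (74.1%, 68.5 to 79.1%) had a peak after HJURP knockdown and 169 (65.3%, 59.3 to 70.8%) after HIRA+HJURP knockdown, but 30 (11.6%, 8.24 to 16.1%) after HIRA+DAXX knockdown. In the 12p cluster most list-specific regions were in no other list, 44 of the 60 HIRA-only regions (73.3%, 61.0 to 82.9%) and 19 of the 20 DAXX-only regions (95%, 76.4 to 99.1%). A single HIRA-only region of that cluster, and no DAXX-only region, had a peak in the HIRA+DAXX list. The double knockdown lists come from 2 ChIP libraries and have narrower peaks, with a median of 285 bp for ectopic HIRA+DAXX peaks, and the part that this has in their overlap was not tested.

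**Figure D5:**
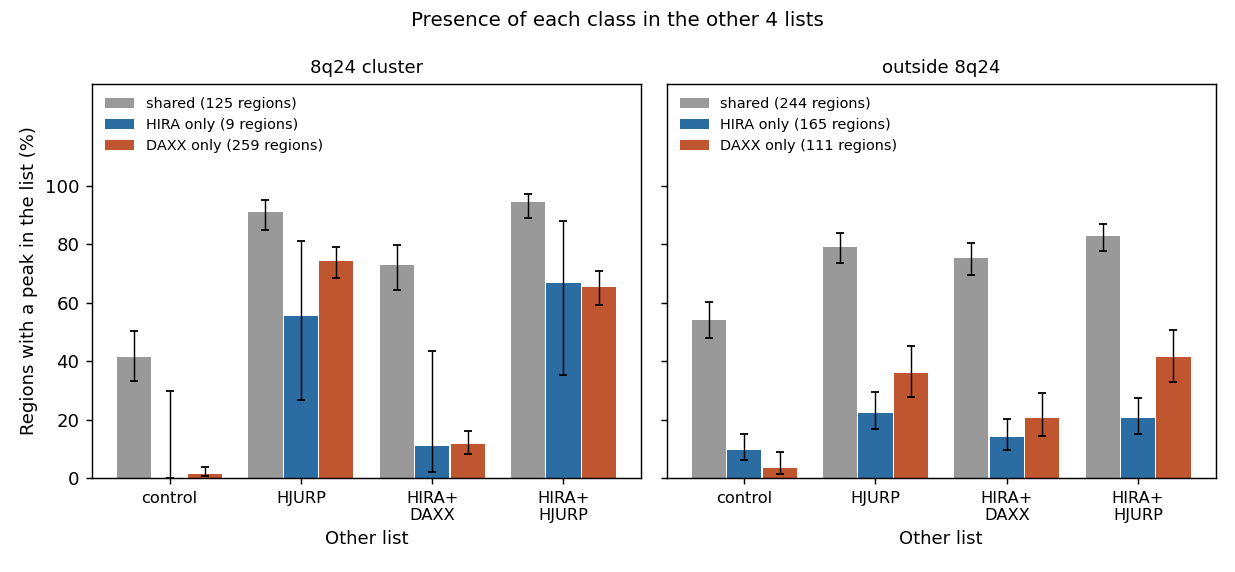
Percent of shared, HIRA-only and DAXX-only regions that have a peak in each of the other 4 lists, at 8q24 (left) and outside it (right), with 95% Wilson intervals that cover counting error only. At 8q24 the DAXX-only regions were in the HJURP list in 74.1% and in the HIRA+DAXX list in 11.6%, and in control in 1.54%. Of the 9 HIRA-only regions there, 11.1% were in the HIRA+DAXX list.

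HIRA-only regions had a lower median GC content than DAXX-only regions in each compartment. In the central 500 bp of each region the median GC content was 34.2% for HIRA-only, 37.6% for DAXX-only and 36.0% for shared regions, against 40% for all 500 bp windows of the genome. HIRA-only and DAXX-only medians were 32.8 and 37.4% at 8q24 (9 and 259 regions), 33.2 and 37% in the 12p cluster, 35.4 and 38.6% near centromeres, and 34.4 and 37.2% on the rest of the arms. The 200-base stretches from 12p printed above had 33.5% GC in ITPR2 (HIRA-only) and 41% between genes (DAXX-only). GC content of the libraries is not known from the lists, and its part in this difference was not tested.

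Near centromeres satellite motifs were found in a larger share of regions of all 3 classes than of genome windows. The windows were spread over the whole genome and none were taken near centromeres alone. This difference therefore cannot be told apart from location. The central 500 bp held 2 tandem copies of GGAAT, the unit of human satellites II and III, in 28.4% (22.8 to 34.7%) of shared, 17.5% (10.7 to 27.3%) of HIRA-only and 21.3% (12.9 to 33.1%) of DAXX-only regions near centromeres, against 0.234% of genome windows. Over whole regions GGAAT pairs numbered 71.1, 38.9 and 70.6 per 10 kb in these classes, and most matches lay on few chromosomes, with 1830 on chromosome 21, 903 on chromosome 2 and 839 on chromosome 10. The central 500 bp reach past the ends of many list-specific regions near centromeres, whose median lengths were 458.5 bp (HIRA-only) and 437 bp (DAXX-only). The CENP-B box was found in 13.5% (9.56 to 18.7%), 5.00% (1.96 to 12.2%) and 4.92% (1.69 to 13.5%) of the central stretches, against 0.0305% of genome windows. In the central 500 bp no region at 8q24 or in the 12p cluster held a CENP-B box, and tandem GGAAT was found in 2 shared regions at 8q24 and in none of the 12p cluster. None of the 913 central stretches held 3 tandem copies of the telomere repeat TTAGGG, which 0.00275% of genome windows held. A match is a run of letters and does not show that a protein was bound there.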

How the data were processed

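Per the labels and the study's methods, the authors used Trimmomatic on the reads and Bowtie2 2.2.6 for alignment to hg19, kept a mapping quality of 10 or more, called peaks with MACS (version not given in the sources used here) for each ChIP library against its input, and merged the replicates' peaks with bedtools, keeping those that overlapped peaks of at least 3 replicates. The rule for the double knockdowns is not given. The deposited lists hold start and end positions only. The paper gives read depths, which were not analysed here.

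The members and lists were chosen with earlier results of these data known. The centromere band positions were written from general knowledge of hg19, and an earlier analysis had preferred them with the study's own values in view. Of 5748 peaks, 5748 ended within their GRCh37 chromosome. Overlap needed 1 base, and common bases were found with Python 3.11.15 and numpy 2.4.6, checked against bedtools 2.31.1 and tested on simulated data. Intervals are from scipy 1.17.1, sequence from pysam 0.24.0, figures from matplotlib 3.10.9 and genes from GENCODE release 44 lifted to GRCh37. Where peaks of a list are counted by gene, any shared base with the gene's span counts. Motifs were sought on both strands in the central 500 bp of regions and in non-overlapping genome windows of 500 bp.

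Named regions were the 3 widest of each class at 8q24 and outside chromosome 8, ranked by their widest single peak. Named genes were the 5 with the most HIRA-only and the 5 with the most DAXX-only peaks (ties by summed bases, then symbol; C2CD5, C2CD5-AS1 and ANKRD20A14P tied at 7 HIRA-only peaks, and the last 2 were added after their values were seen), and the members of 3 lists (8q24 genes, H3.3 chaperones, CENP-A factors), and genes at these regions. Alternatives were a larger overlap, extended peaks, width filters, merging, other centromere boundaries, and the removal of chromosomes 8 or Y or of the 12p cluster.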

Additional observations from a re-analysis of the deposited data

How the results depend on the processing

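DAXX knockdown covered more bases than HIRA knockdown under all 10 alternatives, with ratios between 1.14 and 1.93, and had fewer peaks outside chromosome 8 under all 9, with ratios between 0.748 and 0.837. The ratio of ectopic peak number (1.18) went below 1 with peaks merged within 1 kb (0.990) or 10 kb (0.875) and without chromosome 8 (0.763). At 8q24 the ratio of 2.49 became 1.10 with peaks merged within 10 kb. Merging within 1 kb took 641 HIRA knockdown peaks to 419 and 759 DAXX knockdown peaks to 415. The cause was not tested.

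The share of HIRA knockdown peaks in common (72.9%) became 77.7% with peaks extended by 500 bp, 80.5% with peaks of at least 500 bp, 67.4% without the widest 1%, 65.4% and 59.9% with merging within 1 and 10 kb, 67.6% at least 5 Mb from a band, 66.0% without chromosome 8 and 80.3% without the 12p cluster, an alternative chosen after seeing the data. The share of DAXX knockdown peaks (51.3%) became 62.1% with extension, 58.3% with merging within 10 kb, 55.0% with all deposited peaks and 55.0% with assembly gaps as the boundary, 39.5% at least 5 Mb from a band and 70.0% without chromosome 8. Shared bases (46.4%) became 38.3% without the widest 1%, 54.5% with merging within 10 kb, 36.6% at least 5 Mb from a band and 54.8% without chromosome 8. Of 72 values under alternatives, 50 stayed within the limits set. These were 1.5-fold for ratios and the Wilson interval for shares (for shared bases, with the 913 regions as the count). A ratio that crossed 1 counted as outside whatever the size of its move, as 3 ratios of peak number did. Other centromere boundaries, all deposited peaks and the removal of chromosome Y touch no peak at 8q24. The ratio there stayed at 2.49 by construction, and these values are among the 50.

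No paired analysis was possible because each condition has a single merged list, although the labels number the replicates alike. Leaving out a replicate was not possible either. Depth of the libraries is not in the lists.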

Other observations

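Some of the HIRA-only regions on the arms, chosen here after their values were seen, lay over exons or starts of genes: RPS12, a ribosomal protein gene (319 bp), HEXIM1, a regulator of transcription elongation (218 bp), and VMP1, an autophagy gene (681 bp). None of these 3 had a peak in the control list, and none had one in the other knockdown lists. Of all 25 HIRA-only regions on the rest of the arms, 9 were in none of the other 4 lists. A control peak was present at 6 of the 25, among them those over exons of EGR1 and H3-3B.

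Chromosome 4 held 9 DAXX-only and 2 HIRA-only peaks, also noted after the values were seen. Both classes lay towards the ends of the chromosome, the HIRA-only peaks at chr4:18683-18876 and chr4:190845735-190846077 and the DAXX-only peaks from chr4:35720-36028 on the short arm to chr4:191031679-191032402 on the long arm, as did all but 1 of the 7 shared regions counted with the rest of the arms. ZNF717, a zinc finger gene on chromosome 3, held 3 HIRA knockdown and 7 DAXX knockdown peaks.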
